A study of Mus musculus with 6 samples.

Results

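The MEF2 and basic helix-loop-helix (bHLH) transcription factors Mef2a, Mef2c, Tcf4, Neurod2 and Neurod6 were followed by region and section in the adult mouse hippocampus. The 5 genes were chosen by name, as factors of neurons, with earlier results of these data known. All 5 were found among the 7507 genes of the count table. The libraries came from BALI-Multiome, in which light directs the ligation of region-specific barcodes onto cDNA within an intact tissue section. From each of 3 fresh frozen brain sections, 10 μm thick, 1 RNA library was made from the granular layer of the dentate gyrus (DG) and 1 from CA1, giving 6 libraries in 3 pairs. The mice carried no treatment or allele that the labels name. The sample labels give their age as 12 weeks, whereas the protocols give 8 to 12 months for adult animals, and neither strain nor sex was given in the sources used here. The study speaks of biological replicates when describing accessibility in this experiment. The labels do not say whether the 3 sections came from different animals, so the p-values measure the spread between sections.

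MEF2 proteins are MADS-box factors that bind DNA as dimers. In neurons they are switched by calcium: class IIa histone deacetylases hold them in a repressive state, and calcineurin and calcium-calmodulin kinases relieve it, after which genes that regulate synapse number are transcribed. Proteins of the bHLH class also act as dimers and bind E-box motifs. Tcf4, an E protein that is also called E2-2 or ITF2 and is distinct from the Wnt effector Tcf7l2, is a broadly expressed partner of tissue-restricted bHLH proteins, and its loss of function in people causes Pitt-Hopkins syndrome. Neurod2 and Neurod6 are such restricted partners in excitatory neurons, while Id proteins lack the DNA-binding region and sequester E proteins. Neurod6 is known as a gene of pyramidal neurons.

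Depth limited every statement that follows. The 3 DG libraries held 4572 to 17999 UMIs (unique molecular identifiers, each counting 1 cDNA molecule) and the CA1 libraries 2844 to 9357, with both libraries of section 1 deeper than those of sections 2 and 3. A single UMI was therefore worth between 0.556 and 3.52 UMIs per 10000, the unit used for a gene's share of a library. Markers of the labelled regions were summed in each library. The 6 granule neuron markers analysed summed to 3.18 to 10.9 UMIs per 10000 in DG and 0 to 8.55 in CA1. The 8 CA1 pyramidal markers, Neurod6 among them, summed to 2.22 to 4.37 in DG and 3.52 to 11.8 in CA1, so the ranges of both sums overlapped. Within sections the granule neuron sum was the higher in DG in 3 of 3, at 10.0 against 8.55, 10.9 against 7.03 and 3.18 against 0. The CA1 sum was the higher in CA1 in sections 1 and 3. In section 3 the granule neuron sums were 2 UMIs against 0, and Synpr gave 5 of the 18 UMIs in DG of section 1. Of 999 genes with at least 10 UMIs, 256 (25.6%) went in 1 direction in all 3 sections. Synpr, Wfs1, Mpped1 and Neurod6 are among the genes the study displayed for these libraries. The marker sums are therefore no independent check of the regions. Of the granule neuron markers Synpr (6 UMIs), Pdzd2 (6) and Trpc6 (3) had UMIs in DG alone, while Rfx3, seen in both regions, held 16 of that list's 35 UMIs. Calb1 went the other way, with 2 UMIs, both in CA1, and Stxbp6 had 1 UMI in each region. Wfs1, like Neurod6, had 2 UMIs, both in CA1 of section 1. Pou3f1 held 10 of the 23 UMIs of the CA1 list, with 2, 2 and 2 in DG and 4, 0 and 0 in CA1. Mpped1 had 1, 0 and 0 in DG and 1, 0 and 2 in CA1. Markers of excitatory neurons, a list of 7 that includes Neurod2, reached 81.0 to 96.2 in DG and 89.8 to 137 in CA1. Oligodendrocyte markers, with 7 analysed, reached 50.3 to 80.0 and 66.8 to 99.4, and the 5 astrocyte markers 20.0 to 26.2 and 20.3 to 24.7. Interneuron markers were at 0 to 8.22 over all libraries, and the microglial markers had 4 UMIs in all.

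Transcripts of 3 factors, Tcf4, Mef2c and Neurod2, were detected in all 6 libraries. Tcf4 had 70 UMIs in all and stood at rank 48 of the 7507 genes by UMIs, Mef2c had 56 UMIs at rank 70 and Neurod2 had 28 at rank 203. Mef2a was represented by 7 UMIs in 4 libraries and Neurod6 by 2 UMIs in 1 library. Each UMI counts 1 cDNA molecule primed at the poly-A tail, so by design the counts are not proportional to transcript length. Pooled over the 6 libraries, Tcf4 was at 15.2 UMIs per 10000 (95% Clopper-Pearson interval 11.9 to 19.25) and Mef2c at 12.2 (9.21 to 15.8). Neurod2 was lower, at 6.10 (4.05 to 8.81). As a description only, levels were also divided by the exonic length of the curated RefSeq transcripts (GRCm38.p6, the assembly of mm10). On this scale Neurod2 stood at 1.94 UMIs per 10000 and per kb of exon (95% Clopper-Pearson interval 1.29 to 2.81), Tcf4 at 1.93 (1.51 to 2.44) and Mef2c at 1.71 (1.29 to 2.21), and the 3 intervals overlapped. Mef2a at 0.261 (0.105 to 0.537) and Neurod6 at 0.202 (0.0245 to 0.730) lay below the intervals of those 3 and did not differ from each other beyond counting error. Intervals here and below cover counting error only.

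**Figure D1:**
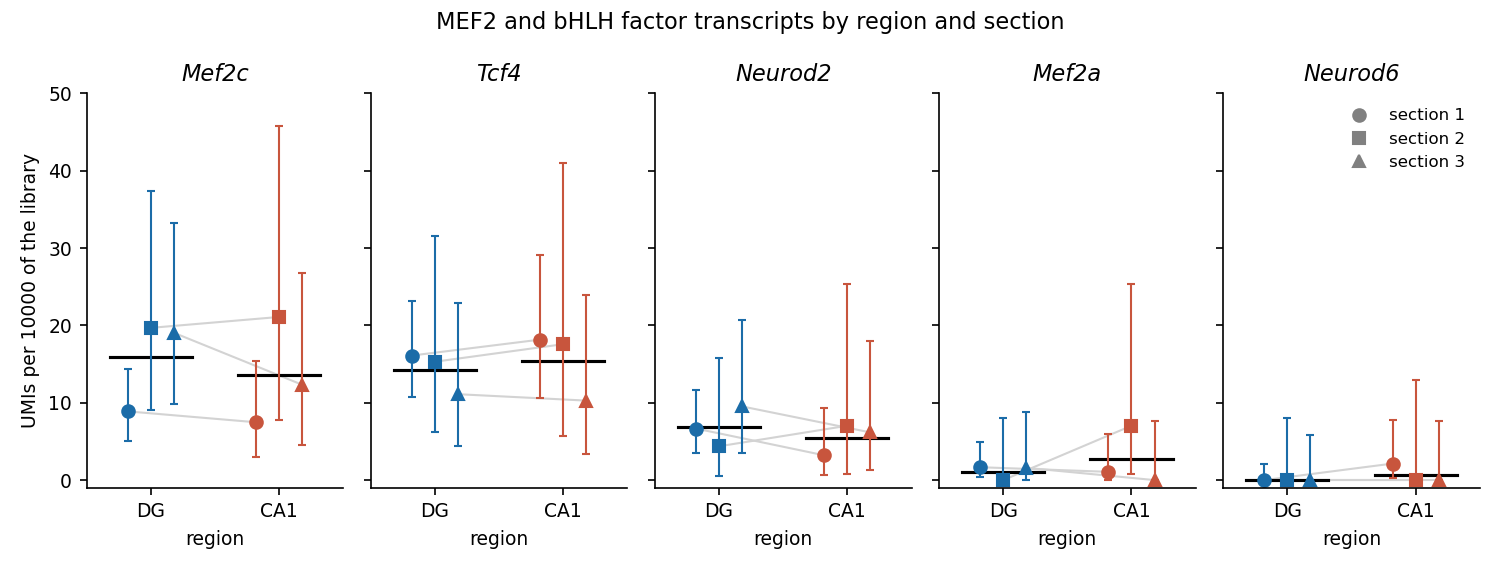
Share of each factor in UMIs per 10000 (vertical axis, linear) in the DG and CA1 libraries of sections 1 to 3. Points are libraries with 95% Clopper-Pearson intervals, grey lines join the libraries of a section, and black bars are the means of 3 libraries. The DG and CA1 values overlap for all 5 genes, and the section 1 values of Mef2c, 8.89 and 7.48, lie below its other 4.

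Among the MEF2 genes, Mef2c had the most UMIs, 56 against 7 for Mef2a and 4 for Mef2d. It also had the highest value per length, at 1.71 UMIs per 10000 and per kb of exon against 0.261 for Mef2a and 0.157 (0.0427 to 0.401) for Mef2d. Mef2c spans chromosome 13, 83504017 to 83667079 on the plus strand, with 16 exon blocks over its 18 curated transcripts. It held 37 of the 44 MEF2 UMIs in DG, 84.1% (interval 69.9 to 93.4%), and 19 of 23 in CA1, 82.6% (61.2 to 95.1%), and these intervals overlapped. Mef2a, the family member on chromosome 7 (67231163 to 67376456, minus strand), and Mef2d, on chromosome 3 (88141941 to 88172091, plus strand), accounted for the remaining 7 and 4 UMIs. Mef2b was not analysed here.

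Mef2c was present in DG at 8.89, 19.7 and 19.1 UMIs per 10000 in sections 1, 2 and 3, from 16, 9 and 12 UMIs. In CA1 of the same sections it was at 7.48, 21.1 and 12.3, from 7, 6 and 6 UMIs. The regions overlapped, and within a section DG was the higher in sections 1 and 3 and the lower in section 2. The means were 15.9 ± 6.06 in DG and 13.6 ± 6.90 in CA1 (SD, n = 3), a difference of 2.24 that did not exceed the spread between libraries (exact permutation test, two-sided, p = 0.9, where 0.1 is the smallest p that 3 against 3 allows). Paired by section, the exact sign-flip test gave p = 0.75, with 0.25 the smallest possible. In a model fitted across all tested genes the log2 fold change, DG over CA1, was 0.33 (SE 0.47, adjusted p = 1.00, edgeR quasi-likelihood), with a 95% interval from 0.658-fold to 2.39-fold. The estimate was -0.04 once the CA1 library of section 1 was left out.

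Mef2a gave 3, 0 and 1 UMIs in DG and 1, 2 and 0 in CA1, that is 1.67, 0 and 1.59 UMIs per 10000 against 1.07, 7.03 and 0. The high value in CA1 of section 2 came from 2 UMIs in the shallowest library, with an interval of 0.852 to 25.4 that overlapped the intervals of the other 5. Pooled over sections, Mef2a was at 1.39 (0.378 to 3.55) in DG and 1.76 (0.363 to 5.14) in CA1, and a regional difference was not detectable at this depth. Mef2d was seen in DG of section 3 with 3 UMIs and in CA1 of section 2 with 1.

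Tcf4 (chromosome 18, 69343429 to 69687967, plus strand, 20 exons in each of its 6 curated transcripts) had the smallest fitted difference between regions of the 3 factors seen in all libraries. In DG it was present at 16.1, 15.3 and 11.1 UMIs per 10000 in sections 1 to 3, from 29, 7 and 7 UMIs. In CA1 it was at 18.2, 17.6 and 10.3, from 17, 5 and 5. The value was lowest in section 3 in both regions, and the regions overlapped. The means of 14.2 ± 2.68 in DG and 15.3 ± 4.40 in CA1 (SD, n = 3) differed by -1.16 (exact permutation test, two-sided, p = 0.6, smallest possible 0.1), and DG was the higher in 1 of 3 sections (exact sign-flip p = 0.5, smallest possible 0.25). The edgeR log2 fold change was -0.04 (SE 0.43, adjusted p = 1.00), with an interval from 0.545-fold to 1.73-fold, and a difference within that interval is not settled by these libraries. Its sign turned when CA1 of section 1, DG of section 3 or the whole of section 1 was left out (0.32, 0.10 and 0.11).

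Neurod2, a bHLH factor of excitatory neurons encoded on chromosome 11 (98325415 to 98329645, minus strand, 2 exons), was present in DG at 6.67, 4.37 and 9.53 UMIs per 10000 from 12, 2 and 6 UMIs. In CA1 the values were 3.21, 7.03 and 6.17, from 3, 2 and 3 UMIs. The regions overlapped, and since no CA1 library had more than 3 UMIs of Neurod2 and section 2 had 2 in each region, no direction was read within a section. The means were 6.86 ± 2.58 and 5.47 ± 2.01 (SD, n = 3), and their difference of 1.39 lay within the spread (exact permutation test, two-sided, p = 0.5; paired by section, exact sign-flip p = 0.5). In the edgeR fit the log2 fold change was 0.57 (SE 0.71, adjusted p = 1.00), with an interval from 0.563-fold to 3.93-fold. Without the CA1 library of section 1 it was 0.25.

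Neurod6 (chromosome 6, 55677818 to 55681263, minus strand, 2 exons) was seen only in the CA1 library of section 1, with 2 UMIs, or 2.14 UMIs per 10000 (interval 0.259 to 7.72). The DG libraries held 0 of 28869 UMIs, with a pooled interval of 0 to 1.28 per 10000 that overlaps the pooled CA1 interval of 0.142 to 4.23. The exact permutation test over libraries gave p = 1 (two-sided), a value that is fixed when 1 library alone holds UMIs, so the test decides nothing here. With 2 UMIs in all, the regions could not be told apart for Neurod6 at this depth. Neurod2 and Neurod6 are among the genes the study displayed for these libraries, and their directions are therefore not independent evidence.

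**Figure D2:**
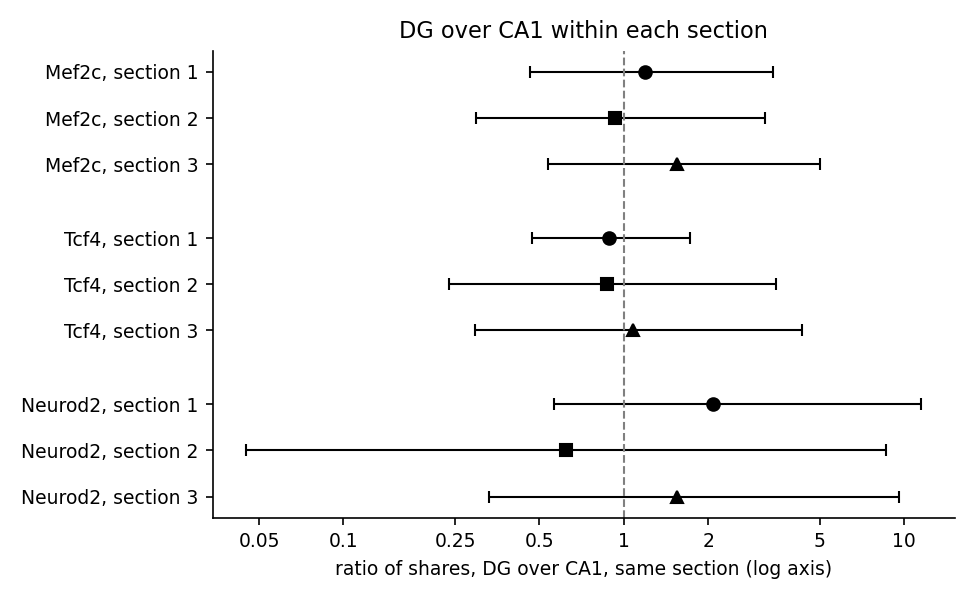
Ratio of a gene's share in DG to its share in CA1 of the same section (horizontal axis, log scale) for Mef2c, Tcf4 and Neurod2. Points are sections, bars are exact conditional 95% intervals and the dashed line marks equal shares. All 9 intervals include 1.

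The region comparison can be read section by section, since both libraries of a section share its tissue. The DG barcode was ligated before the CA1 barcode, so region cannot be told apart from barcode and order of ligation. Mef2c in DG was 1.19 times its share in CA1 in section 1 (exact interval 0.463 to 3.42), 0.933 times in section 2 (0.297 to 3.19) and 1.55 times in section 3 (0.537 to 5.02). For Tcf4 the ratios were 0.887 (0.471 to 1.72), 0.871 (0.238 to 3.48) and 1.08 (0.296 to 4.32). Tcf4 in section 1, with 46 UMIs, gave the narrowest interval of the 9 plotted. Ratios of Neurod2 were 2.08 (0.561 to 11.5) from 12 and 3 UMIs, 0.622 (0.0451 to 8.58) from 2 and 2, and 1.55 (0.330 to 9.55) from 6 and 3, with the widest intervals of the set. Neither Mef2c nor Tcf4 moved in 1 direction in all 3 sections, a pattern that 256 of the 999 tested genes (25.6%) showed in either direction. Neurod2 had too few UMIs for its direction to be read within a section. For Mef2c, Tcf4 and Neurod2 alike the DG and CA1 values overlapped, while 122 of the 999 genes (12.2%) had values that did not.

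Across all genes, 999 had at least 10 UMIs summed over the 6 libraries and were tested. Mef2c, Tcf4 and Neurod2 were among them, and Mef2a and Neurod6 were not. No gene was called between DG and CA1 at an adjusted p under 0.05 (edgeR quasi-likelihood, 0 of 999 or 0%), 52 had an unadjusted p under 0.05, and DESeq2 called 0 with 17 unadjusted. With section as a replicate block 1 gene, Prkce, was called, which is no member and is named after its value was seen. Without the CA1 library of section 1 the count was also 1. In bulk libraries such as these, fewer cells of a type and less RNA per cell cannot be told apart.

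The values of Mef2c also differed by section. Averaged over DG and CA1, Mef2c was at 8.19 UMIs per 10000 in section 1, 20.4 in section 2 and 15.7 in section 3. Both section 1 values were below all 4 others, while the Tcf4 value of section 1 was the highest in each region, by less than its counting interval. In a fit with section as the factor and region as a covariate, chosen after these values were seen, the log2 fold change of Mef2c over section 1 was 1.01 for section 2 and 0.88 for section 3. The unadjusted p of 0.0534 did not pass the threshold (adjusted p = 0.859, edgeR), and 61 of the 999 genes had a p as small. For Tcf4 the same fit gave -0.33 and -0.74 (adjusted p = 0.859) and for Neurod2 -0.21 and 0.54 (adjusted p = 0.970). In that fit 2 of 999 genes (0.200%) were called, Rps24 and the myelin gene Mbp. Neither is a member, and both are named after their values were seen. With no filter on low counts the Mef2c value for section 2 over section 1 fell from 1.01 to 0.38.

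The ratio of Mef2c to Tcf4 UMIs within a library does not depend on its depth scaling, and between libraries the lengths of both genes cancel. Mef2c made up 35.6% of their joint UMIs in DG of section 1 (interval 21.9 to 51.2%) and 29.2% in CA1 of section 1 (12.6 to 51.1%). In section 2 the shares were 56.2% in DG (29.9 to 80.3%) and 54.5% in CA1 (23.4 to 83.3%), and in section 3 they were 63.2% (38.4 to 83.7%) and 54.5% (23.4 to 83.3%). Mef2c thus had fewer UMIs than Tcf4 in both libraries of section 1 and more in the other 4, a count not divided by length, and the interval of each of the 6 libraries includes 50%. Both 54.5% values rest on 6 UMIs against 5. Summed over regions the share was 33.3% in section 1 (22.4 to 45.7%) and 57.9% in sections 2 and 3 (44.1 to 70.9%), a description with no test because the split was seen first. Oligodendrocyte markers differed between sections too, from 80.0 UMIs per 10000 in DG of section 1 to 50.3 and 71.5 in sections 2 and 3, and from 99.4 in CA1 of section 1 to 66.8 and 78.1. Section 1 also had the deepest libraries, and the part of depth or of cell makeup in the Mef2c pattern was not tested.

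**Figure D3:**
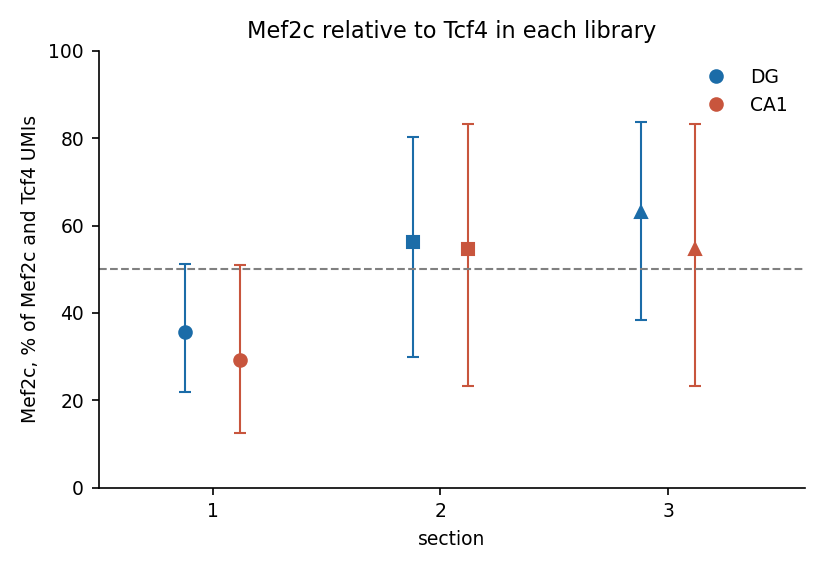
Mef2c as a percentage of the Mef2c and Tcf4 UMIs of a library (vertical axis) by section, with DG in blue and CA1 in red. Bars are 95% Clopper-Pearson intervals and the dashed line marks equal UMIs. Both section 1 libraries lie below the line, at 35.6% and 29.2%, and the other 4 lie above it, with intervals that overlap.

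Likeness over the 6 libraries was described by Pearson's r of log2(UMIs per 10000 + 1) against the genes with at least 30 UMIs. These 6 points share 3 sections and their depths, so r is given without a test. The genes named were picked for the highest r, so a section pattern shared with the member follows from that choice. The genes most like Mef2c among 189 were Kmt2a (r = 0.94), a histone methyltransferase, Sptbn1 (0.93), a spectrin of the membrane skeleton, and Arpp21 (0.88), a neuronal phosphoprotein. Kmt2a ran at 6.67, 17.5 and 15.9 UMIs per 10000 in DG and 3.21, 21.1 and 14.4 in CA1, low in section 1 in both regions as Mef2c was. Tcf4 was most like Bcl11b (0.95), a zinc finger factor of cortical and hippocampal neurons, Kif5b (0.88), a kinesin heavy chain, and the ribosomal protein gene Rpl39 (0.83). Bcl11b was lowest in section 3, at 4.76 in DG and 6.17 in CA1. For Neurod2, compared with 190 genes, they were Phactr1 (0.95), a regulator of protein phosphatase 1 and actin, Pcsk2 (0.87), a prohormone convertase, and Gnao1 (0.86), a G protein subunit. Between the members r was 0.50 for Mef2c and Neurod2, -0.24 for Mef2c and Tcf4, and -0.54 for Tcf4 and Neurod2.

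Of the genes that act on MEF2 proteins, 16 of a list of 17 were analysed and 5 were tested. None was called in either direction, 4 had a log2 fold change above 0 and 1 below, and their median was 0.07. Over all 999 genes 544 were above 0 and 455 below, with a median of 0.08. Ppp3ca, the catalytic subunit of calcineurin, had 130 UMIs and a log2 fold change of 0.06 (SE 0.33). Crebbp, a histone acetyltransferase that MEF2 recruits, had 16 UMIs (0.81, SE 0.93), and Hdac4, a class IIa deacetylase, had 14 (0.07, SE 0.93). Camk4, a nuclear calcium-calmodulin kinase, gave 4, 0 and 0 UMIs in DG and 3, 1 and 5 in CA1. Its log2 fold change of -1.87 (SE 0.99) was the lowest of the 5 and did not pass (adjusted p = 0.880, edgeR).

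Genes known as MEF2 targets were sparse. Of 15 listed, 11 were analysed and 2 tested, none called, with a median log2 fold change of -0.57. Homer1, a postsynaptic scaffold gene, had 22 UMIs (log2 fold change -0.13, SE 0.76), and the potassium channel gene Kcna1 had 16, with 4, 1 and 2 in DG and 5, 2 and 2 in CA1. Arc, an immediate early gene, and Pcdh10, a protocadherin, had 6 UMIs each and were under the limit for testing. The summed targets were at 12.8, 15.3 and 23.8 UMIs per 10000 in DG and 23.5, 10.5 and 16.4 in CA1, where the regions overlapped.

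Of the partners of Tcf4, Neurod2 had the 28 UMIs described above, and the inhibitors were sparse. Tcf4 was the single E protein analysed, since Tcf3 and Tcf12 were not analysed here, and the Id proteins Id2 and Id3 had 8 and 1 UMIs. Lef1, of the unrelated TCF/LEF group, had 1 UMI. Neurod2 and Neurod6 were the only 2 analysed of 16 neuronal bHLH genes. Among 44 other bHLH genes 26 were analysed and 3 tested, and none was called: Ncoa1, a nuclear receptor coactivator (0.30, SE 0.72), Mga, a partner of Max (0.55, SE 1.12), and Clock, a circadian factor (-1.29, SE 1.04).

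Other factors with regional roles in the hippocampus gave a wider set for comparison. Of 41 listed, 36 were analysed and 18 tested. None was called, 14 had a log2 fold change above 0 and 4 below, and the median was 0.30, beside 544 above, 455 below and 0.08 over all 999 genes. Nfix, a nuclear factor I gene, had 66 UMIs (0.33, SE 0.45), Bcl11b 47 (-0.17, SE 0.52), Lmo4, a LIM-only cofactor, 34 (0.07, SE 0.62) and Myt1l, a neuronal zinc finger gene, 33 (-0.32, SE 0.61). The values of Mef2c (0.33), Tcf4 (-0.04) and Neurod2 (0.57) lay within the range of these 18 genes, -0.37 to 2.23.

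**Figure D4:**
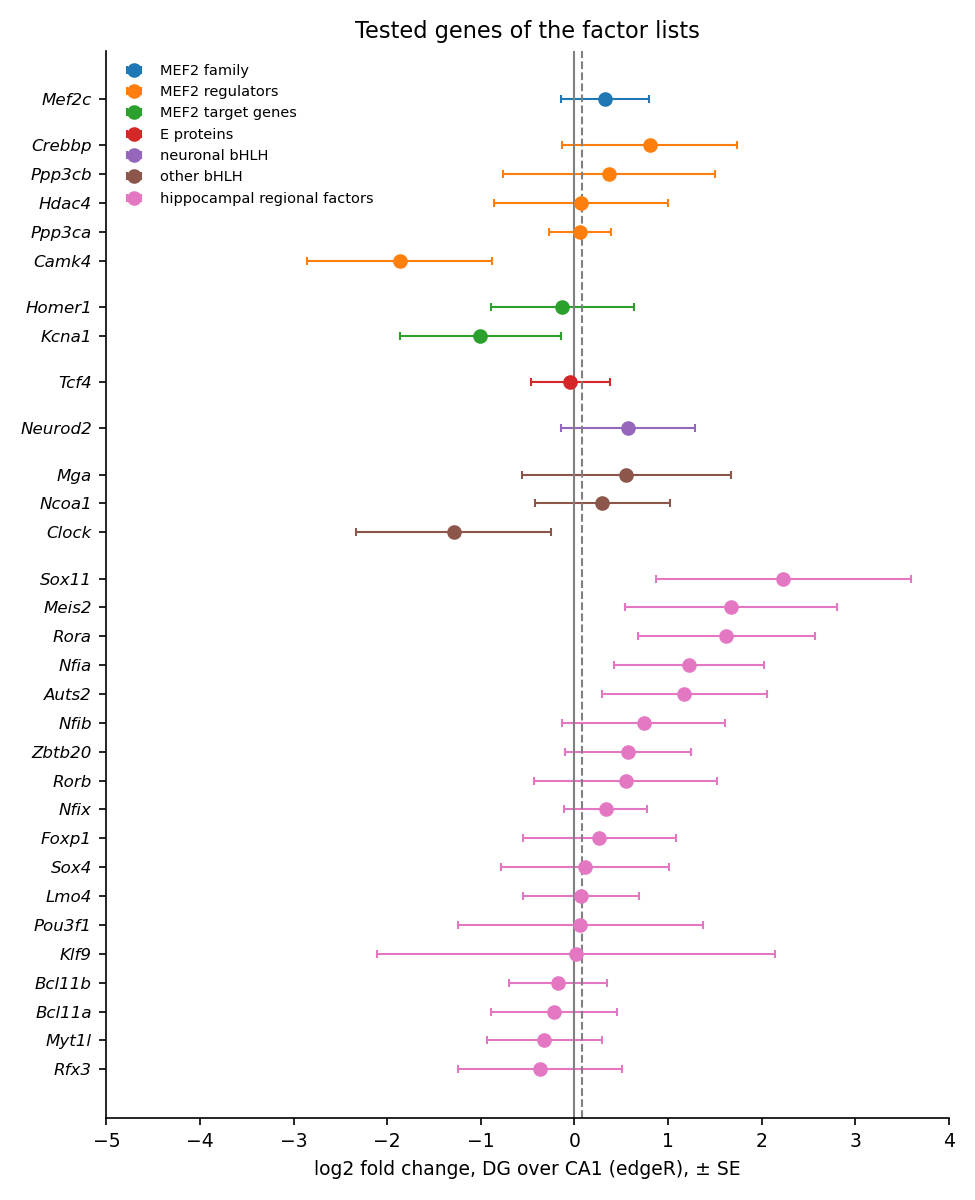
Log2 fold change, DG over CA1, from the edgeR fit (horizontal axis) for the tested genes of each list, 1 row per gene, coloured by list. Points are estimates, bars are ± 1 SE, the solid line marks 0 and the dashed line the median over all 999 genes, 0.08. Mef2c (0.33), Tcf4 (-0.04) and Neurod2 (0.57) lie within about 1 SE of that median, and no gene shown was called.

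Summed, the MEF2 genes reached 18.6 ± 7.49 UMIs per 10000 in DG and 17.5 ± 12.4 in CA1 (SD, n = 3), and the 5 factors together 38.0 ± 4.15 and 37.9 ± 13.0. These sums overlapped between regions, and the difference for the 5 factors was 0.136 against an SD of 13.0 between the section differences. Counting took no account of strand. In RefSeq, antisense noncoding genes share exonic bases with Mef2c (Gm52043 and Gm52044), Tcf4 (Gm31439) and Mef2d (1700113A16Rik). Whether the annotation used for counting held these partners was not checked. Reads from the shared bases may therefore have been counted for the 3 factors or left out.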

How the data were processed

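RNA libraries from DG and CA1 of 3 sections were analysed, and the accessibility libraries were not used here. The authors extracted 6-base UMIs with umi_tools, split reads by full or partial barcode (cutadapt 4.1), mapped read 1 to mm10 (STAR 2.7.9a), assigned reads to genes (featureCounts, Subread 2.0.3, default options, no strand) and counted UMIs per gene. Each deposited count exceeds the UMI count by 1, which was subtracted, and the row of totals was left out. The authors' CPM and ratio columns were not used.

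Genes with at least 10 UMIs over 6 libraries were tested with edgeR 4.0.16 (quasi-likelihood, TMM, R 4.3.3), calling genes at a Benjamini-Hochberg adjusted p under 0.05. Code was tested on simulated data. DESeq2 1.42.0 was an alternative. Shares of single genes were compared by exact permutation and sign-flip tests (scipy 1.17.1), with Clopper-Pearson 95% intervals, also for a count of 0. The DG and CA1 libraries of 1 section share its tissue, which pairs them; after removal of region means their deviations correlated at 0.18, 0.067 and 0.082 in sections 1 to 3. Total UMIs per library ran from 2844 to 17999. Gene models were RefSeq GRCm38.p6.

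The 5 members and the gene lists were chosen with earlier results of these data known. The genes named are the members, up to 4 genes of each list with most UMIs, and the 3 genes most like each member with at least 10 UMIs. Calb1 and Stxbp6 were added to complete the granule neuron list, and other called genes are named as such. One gene of the MEF2 target list is not reported here and was left out of that list's counts and sums.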

Additional observations from a re-analysis of the deposited data

How the results depend on the processing

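No setting called a member between DG and CA1. Calls over all genes were 0 in every setting but 2: 1 with section as a replicate block and 0 to 1 on leaving out a library or section. The block changed no other call; in it the log2 fold changes were 0.35 (Mef2c), -0.09 (Tcf4) and 0.61 (Neurod2), and the paired differences, 2.24, -1.16 and 1.39 UMIs per 10000, equal the unpaired ones by construction. Tcf4 turned to 0.12 on the log2 scale with no filter on low counts, where the median over genes was 0.46, and to 0.953 UMIs per 10000 with the counts as deposited. Mef2a turned to 0.519 with medians. Leaving out a library or section moved the log2 fold change of Mef2c from -0.04 to 0.77, of Tcf4 from -0.26 to 0.32 and of Neurod2 from 0.25 to 0.81. In UMIs per 10000, DG minus CA1, the ranges were -3.22 to 1.09 (Mef2a), -0.839 to 5.97 (Mef2c), -3.70 to 0.369 (Tcf4), 0.0524 to 3.41 (Neurod2) and -1.07 to 0 (Neurod6). Without 1 section the MEF2 sum ran from -4.98 to 7.54 and the sum of the 5 factors from -6.05 to 6.89. For the section comparison, added after seeing the data, the calls were 0 with DESeq2 size factors, with at least 30 UMIs or with the counts as deposited, and 14 with no filter; the log2 value of Neurod2 for section 2 over section 1 turned to 0.035 with total UMIs as the scale and to 0.007 with the counts as deposited. The Mef2c value for section 2 over section 1 ran from 0.379 with no filter to 1.30 with at least 30 UMIs, beside 1.01 in the main fit. For Tcf4 it ran from -0.952 to -0.035 in the same 2 settings, beside -0.33. The cause was not tested for any of these. A stricter filter left Neurod2 (at least 30 UMIs) or Tcf4 and Neurod2 (filterByExpr) without a value. Depth limits these values: a gene at 3 UMIs or fewer cannot be compared.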
